A study of Mus musculus with 21 samples.

Results

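Glucocorticoid-responsive genes were followed in RNA-Seq libraries of hypothalamic neurons from fed and food-deprived mice. The 10 members are the genes *Fkbp5*, *Zbtb16*, *Tsc22d3*, *Bcl6*, *Sgk1*, *Map3k6*, *Errfi1*, *Ddit4*, *Fam107a* and *Sult1a1*, taken by symbol from a count table of 35266 genes. All 10 had an entry and passed the filter on low counts. The list was chosen by known or likely response to the hormone and with the changes under deprivation in view, so those changes are given here as a description, without a test. Corticosterone, the main glucocorticoid of the mouse, is released by the adrenal gland in a daily rhythm and under stress, and fasting raises it. It binds the glucocorticoid receptor (*Nr3c1*) and, with higher affinity, the mineralocorticoid receptor (*Nr3c2*), which are held by chaperones in the cytoplasm, move to the nucleus and bind palindromic response elements in DNA. AGRP neurons of the arcuate nucleus drive feeding, POMC neurons oppose it, and both are known to respond to the hormone.

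The libraries came from 21 male mice, 1 library from each mouse. AGRP neurons were isolated from the NPY-hrGFP line, in which Npy cells fluoresce, and POMC neurons from the Pomc-GFP line, both on C57BL/6J. There were 5 fed and 6 food-deprived (FD) mice for AGRP neurons and 5 fed and 5 FD mice for POMC neurons, at postnatal days 46 to 56. FD mice were without food for 24 h, all mice were moved to a fresh cage of their own at the start of that time, and brains were taken around midday. Between 44 and 214 fluorescent neurons per mouse were sorted by hand after enzymatic dissociation, and undissociated tissue was not analysed here. The neurons are defined by a transgene in 1 line each, which means that cell type and mouse line cannot be told apart. In bulk RNA, fewer cells that express a gene and less RNA of it per cell cannot be told apart.

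Depth was 9822298 to 37663979 gene counts per library. Levels are given as CPM (counts scaled to a common library size) scaled by the TMM method, and levels of different genes are compared only in TPM, which also take gene length into account. The marker sums followed the labels, with *Agrp* plus *Npy* at 12064 TPM or more in every AGRP library and at 226 TPM or less in every POMC library. The 15 markers of astrocytes, oligodendrocytes, microglia and endothelial cells summed to between 4.37 and 20.9 TPM per library, with group medians of 14.9 (AGRP fed), 12.8 (AGRP FD), 7.60 (POMC fed) and 14.1 TPM (POMC FD). Of the 9 of them that were tested with edgeR, 1 (*Aldh1l1*, an astrocyte enzyme) had an adjusted p under 0.05 in AGRP neurons, higher in FD mice, and 0 had one in POMC neurons, where 1 had an unadjusted p under 0.05 (*Aqp4*, an astrocyte gene, lower in FD mice). Their part in the results was not tested. The volume of added spike-in RNA also differed between libraries, and the 3 volume schemes were spread over both conditions for AGRP neurons but not for POMC neurons, so values within a scheme stand beside the results that need them. AGRP FD replicate 2, with 50 cells and 1 µl, could belong to the fixed or the per-cell scheme and was put with the latter.

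Response elements near the start sites give the sequence side of the list. The 250 bases before each RefSeq start site (GRCm38.p6) were searched on both strands, and 9 of the 10 members had such a window (all but *Zbtb16*). The full palindrome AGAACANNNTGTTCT occurred in 1 member, *Sgk1*, and in 0.0111% of the 27025 genes with a window. A relaxed form, GNACANNNTGTNC, which overlaps the full form wherever that is present, occurred in 3 members (*Sgk1*, *Map3k6* and *Fam107a*) and in 0.44% of all genes. It occurred in 2 of 33 matched genes of a wider list of glucocorticoid targets (*Mt1* and *Trim63*). The single arm AGAACA, common by its length, occurred in 5 members and in 18.2% of all genes. The 9 members had 20 windows and the 27025 genes 32851, so more sequence was searched per member. Per window, the relaxed form was in 4 of 20 for members and in 0.387% of all. The single arm was in 8 of 20 and in 16.1% of all. Each *Fam107a* site was counted in both windows of its neighbouring starts. The 3 stretches with the relaxed palindrome are shown because they are the closest matches in the list to the element that the receptor binds, with the 13 matched bases in capitals and reading 5′ to 3′ along the strand of the gene.
*Sgk1*, chr10:21993678-21993737, plus strand: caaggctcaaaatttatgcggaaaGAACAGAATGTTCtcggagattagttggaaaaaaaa
*Map3k6*, chr4:133240613-133240672, plus strand: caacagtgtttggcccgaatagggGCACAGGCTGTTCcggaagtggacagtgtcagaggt
*Fam107a*, chr14:8309862-8309921, minus strand: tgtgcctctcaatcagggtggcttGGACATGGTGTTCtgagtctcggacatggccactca
The matches begin 188 bases before the start in *Sgk1* and 181 in *Map3k6*, and 118 or 120 before the neighbouring starts of *Fam107a*. The stretch of *Map3k6* lies outside the gene, and those of *Sgk1* and *Fam107a* lie in introns of longer transcripts, before an internal start. None of the 3 stretches overlaps an annotated exon (GENCODE M21). A match is a description of the letters and not evidence of binding, and response elements far from a start were not searched.

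*Fkbp5* (ENSMUSG00000024222, mm10 chromosome 17, 28399095 to 28517524) encodes a co-chaperone that lowers the affinity of the glucocorticoid receptor for its hormone and is itself induced by it, a negative feedback. In AGRP neurons of fed mice its level was 29.8, 21.7, 33.2, 21.04 and 55.9 CPM, and in FD mice the lowest, median and highest of 6 values were 79.0, 146 and 217 CPM. The groups did not overlap, and the log2 fold change, FD over fed, was 2.24 (standard error 0.35). In POMC neurons the fed values were 20.3, 31.7, 9.15, 18.2 and 13.4 CPM and the FD values 26.9, 35.2, 35.8, 89.8 and 70.2 CPM. Here 1 fed library (replicate 2) lay above 1 FD library (replicate 1), and the log2 fold change was 1.47 (standard error 0.35). The highest POMC FD libraries, replicates 4 and 5, are those with 10 µl of spike-in RNA, a volume no POMC fed library had. Within the 1 µl libraries, 3 per group, mean *Fkbp5* was 32.6 CPM in FD and 13.6 CPM in fed mice, a log2 ratio of 1.27. In AGRP neurons the same ratio was 1.99, 2.68 and 1.95 within the 3 spike-in schemes.

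**Figure D1:**
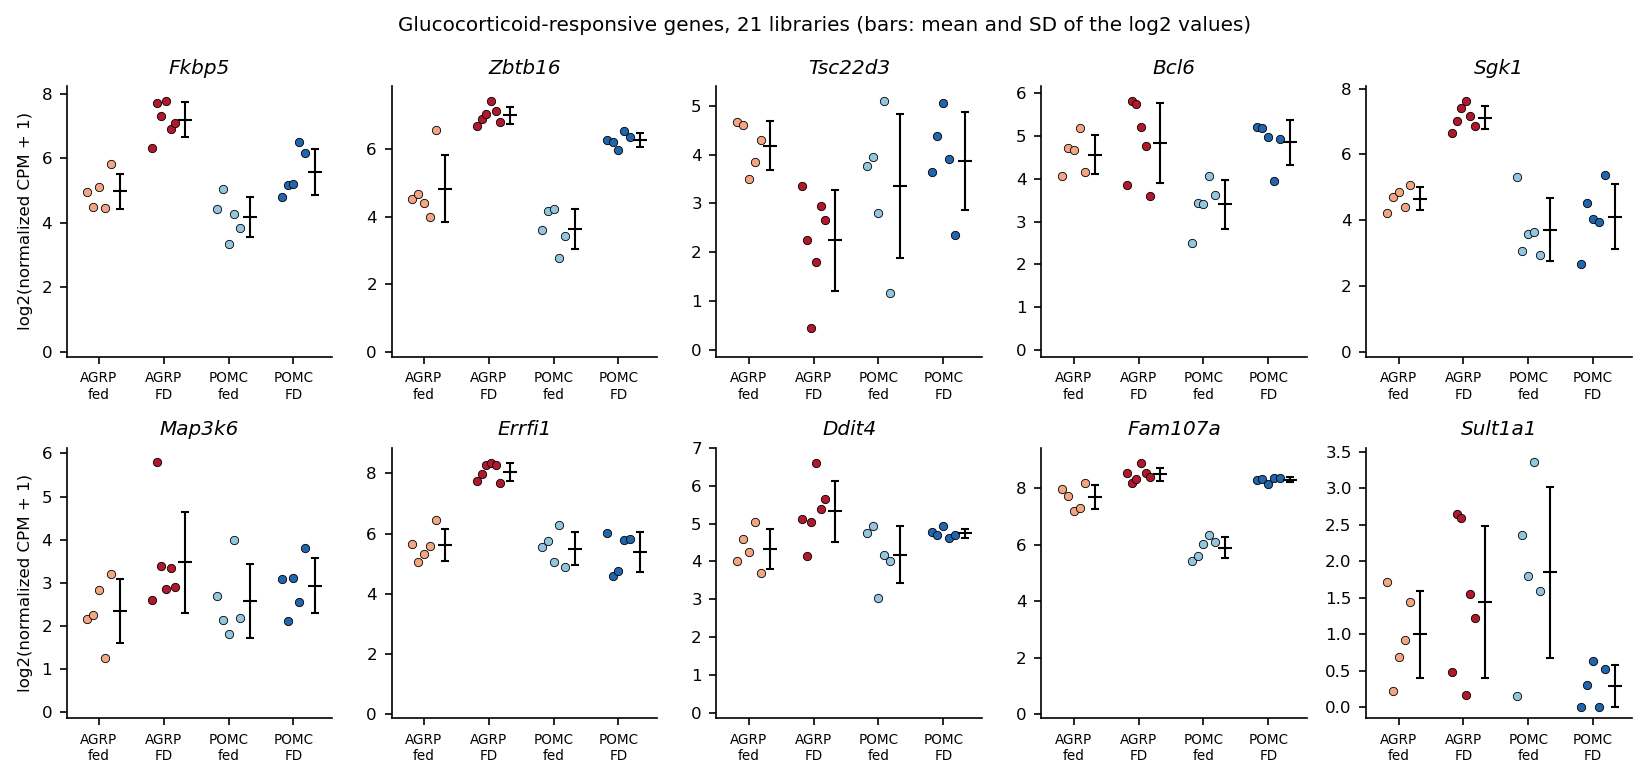
Level of each of the 10 genes as log2(normalized CPM + 1), 1 point per library in the 4 groups (AGRP fed n = 5, AGRP FD n = 6, POMC fed n = 5, POMC FD n = 5), with the mean and SD of the log2 values beside the points. *Zbtb16* and *Fam107a* were without overlap in both cell types, *Fkbp5*, *Sgk1* and *Errfi1* in AGRP neurons, all higher in FD mice, and *Tsc22d3* was lower in AGRP FD mice (10.3 CPM in the lowest fed and 9.22 CPM in the highest FD library).

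Next come the 3 transcription regulators. *Zbtb16* (ENSMUSG00000066687, chromosome 9, 48654311 to 48835945) encodes PLZF, a zinc finger repressor that glucocorticoids induce in many tissues. Its values were 21.8, 24.5, 20.3, 14.8 and 93.4 CPM in AGRP fed mice, and the lowest, median and highest were 102, 124 and 170.2 CPM in AGRP FD mice. In POMC neurons they were 11.2, 17.0, 17.8, 5.89 and 9.65 CPM in fed and 75.6, 72.5, 61.8, 90.7 and 81.7 CPM in FD mice. Neither pair of groups overlapped, although AGRP fed replicate 5 stood close to the FD libraries. The log2 fold change was 1.87 (standard error 0.35) in AGRP neurons and 2.63 (standard error 0.38) in POMC neurons. Without AGRP fed replicate 5 the AGRP value was 2.65. The ratio within the 1 µl libraries of POMC neurons was 2.66 on the log2 scale.

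*Tsc22d3* (ENSMUSG00000031431, chromosome X, 140539528 to 140600659) encodes GILZ, a leucine zipper protein and a standard marker of glucocorticoid action. It went the other way in AGRP neurons. Fed libraries had 24.5, 23.5, 10.3, 13.4 and 18.6 CPM, and FD libraries ran from 0.364 over a median of 4.51 to 9.22 CPM, without overlap. The log2 fold change was −1.96 (standard error 0.63), and it was −1.86, −2.12 and −1.85 within the 3 spike-in schemes. POMC values spread from 1.23 to 33.4 CPM in fed and from 4.13 to 32.2 CPM in FD mice, with a log2 fold change of 0.27 (standard error 0.64). The mean of *Tsc22d3* stayed under 20 CPM in each group, so it was outside the level set for calling a gene.

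*Bcl6* (ENSMUSG00000022508, chromosome 16, 23965052 to 23988852) encodes a transcriptional repressor. In AGRP neurons it was between 15.8 and 35.2 CPM in fed and between 11.2 and 55.0 CPM in FD mice, with wide overlap and a log2 fold change of 0.46 (standard error 0.39). In POMC neurons the fed values were 4.64, 9.73, 9.66, 15.6 and 11.3 CPM and the FD values 35.9, 35.0, 30.2, 14.3 and 29.5 CPM. All POMC FD libraries but replicate 4 lay above every fed library, and the log2 fold change was 1.51 (standard error 0.41).

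Kinases and brakes on signalling make up the next 4 members. *Sgk1* (ENSMUSG00000019970, chromosome 10, 21882184 to 21999903), a kinase that takes part in ion transport and acts downstream of PI3-kinase, had 17.7, 25.2, 28.3, 20.1 and 32.97 CPM in AGRP fed mice. The lowest, median and highest AGRP FD values were 99.0, 136 and 196 CPM, a log2 fold change of 2.51 (standard error 0.42) without overlap. In POMC neurons it was 39.1, 7.40, 10.96, 11.4 and 6.72 CPM in fed and 5.43, 22.2, 15.3, 14.4 and 40.2 CPM in FD mice. These overlapped over nearly their whole range, with a log2 fold change of 0.37 (standard error 0.41).

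*Errfi1* (ENSMUSG00000028967, chromosome 4, 150853919 to 150868892) encodes MIG6, an inhibitor of EGF receptor signalling. AGRP fed libraries held 49.2, 32.3, 38.4, 47.3 and 86.8 CPM and AGRP FD libraries 204, 280.0 and 328 CPM at the lowest, median and highest. The groups did not overlap, and the log2 fold change was 2.41 (standard error 0.30). POMC values were 45.6, 53.3, 31.9, 76.4 and 28.4 CPM in fed and 63.6, 22.9, 25.9, 54.0 and 55.9 CPM in FD mice. The POMC groups overlapped, with a log2 fold change of −0.08 (standard error 0.29).

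*Ddit4* (ENSMUSG00000020108, chromosome 10, 59949675 to 59951770) encodes REDD1, an inhibitor of mTORC1. In AGRP neurons it was 15.2, 23.3, 18.1, 32.1 and 11.9 CPM in fed mice, and the lowest, median and highest FD values were 16.7, 37.2 and 97.0 CPM. The groups overlapped, the log2 fold change was 1.16 (standard error 0.38), and it was 0.78 without AGRP FD replicate 4, the highest library. POMC FD libraries lay between 23.4 and 29.5 CPM and POMC fed libraries between 7.15 and 29.7 CPM, with a log2 fold change of 0.45 (standard error 0.38).

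*Map3k6* (ENSMUSG00000028862, chromosome 4, 133240818 to 133252929), a kinase of stress-activated signalling, was low. Its median was 3.74 CPM in AGRP fed, 7.82 in AGRP FD, 3.54 in POMC fed and 7.50 CPM in POMC FD mice. The AGRP log2 fold change of 1.73 (standard error 0.66) rested on AGRP FD replicate 2 at 54.4 CPM, and without it the value was 0.67. That library had the fewest sorted cells of its group (50).

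Other roles are filled by the last pair. *Fam107a* (ENSMUSG00000021750, chromosome 14, 8296274 to 8318023) encodes an actin-binding protein that stress induces in the brain. Its values were 249.5, 212, 146, 157 and 291 CPM in AGRP fed mice and 295, 356 and 481 CPM at the lowest, median and highest in AGRP FD mice. In POMC neurons they were 42.0, 47.6, 64.6, 79.8 and 67.9 CPM in fed and 315, 324, 286, 329 and 331 CPM in FD mice. Neither pair of groups overlapped. The log2 fold change was 0.79 (standard error 0.18) in AGRP neurons and 2.39 (standard error 0.20) in POMC neurons. On the TPM scale the FD levels were 279 ± 42.8 (SD, n = 6) in AGRP neurons and 276 ± 17.2 (SD, n = 5) in POMC neurons, from fed levels of 192 ± 56.3 and 49.5 ± 16.5 (SD, n = 5 each). *Sult1a1* (ENSMUSG00000030711, chromosome 7, 126672865 to 126676432), a phenol sulfotransferase, was at 9.23 CPM or less in every library. Its POMC values were 0.110, 4.14, 2.47, 9.23 and 2.00 CPM in fed and 0, 0.239, 0.550, 0 and 0.435 CPM in FD mice, with overlap, while 3 counts are worth up to 0.305 CPM in a library.

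By the criteria of the study (adjusted p under 0.05, absolute log2 fold change over 1 and mean CPM over 20 in at least 1 group), 7 members were over the level. In AGRP neurons 5 of them met the criteria, all higher in FD mice (*Fkbp5*, *Zbtb16*, *Sgk1*, *Errfi1* and *Ddit4*), beside 5.09% higher and 3.9% lower over the 8198 genes over the level. In POMC neurons 2 did, both higher (*Zbtb16* and *Fam107a*), beside 0.256% higher and 0.281% lower. *Fkbp5* was near the limit there. It met the criteria in 5 of 11 other settings and in 3 of 10 fits with 1 library left out. *Ddit4* no longer met the criteria with limma-voom, a block for replicate or for age cohort, cell number as a covariate, a fit of AGRP libraries only or spike-in scaling, or when 1 library was left out in 7 of 11 cases (AGRP fed replicates 1, 2, 3 and 5 and AGRP FD replicates 4, 5 and 6). Groups were without overlap in 5 of the 7 in AGRP neurons, all higher, beside 7.4% higher and 4.57% lower over all genes, and in 2 of 7 in POMC neurons, beside 1.73% in each direction. Nothing is read from these counts, since the list was set with these changes known. With spike-in scaling, 0 members met the criteria in either cell type. Under it the AGRP log2 fold changes of *Fkbp5*, *Zbtb16*, *Sgk1*, *Errfi1* and *Ddit4* were 1.85, 1.24, 2.41, 2.06 and 0.74. The spike-in counts it uses differed widely between volume schemes within a group. In AGRP fed mice, replicate 1 had 54433 with 1 µl and replicate 2 had 2755357 with 10 µl. The part of this spread in the lost calls was not tested. With TMM scaling, the median change of the 7 on the log2 scale was 1.87 in AGRP and 1.47 in POMC neurons, against 0.09 and −0.01 over all genes over the level.

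**Figure D2:**
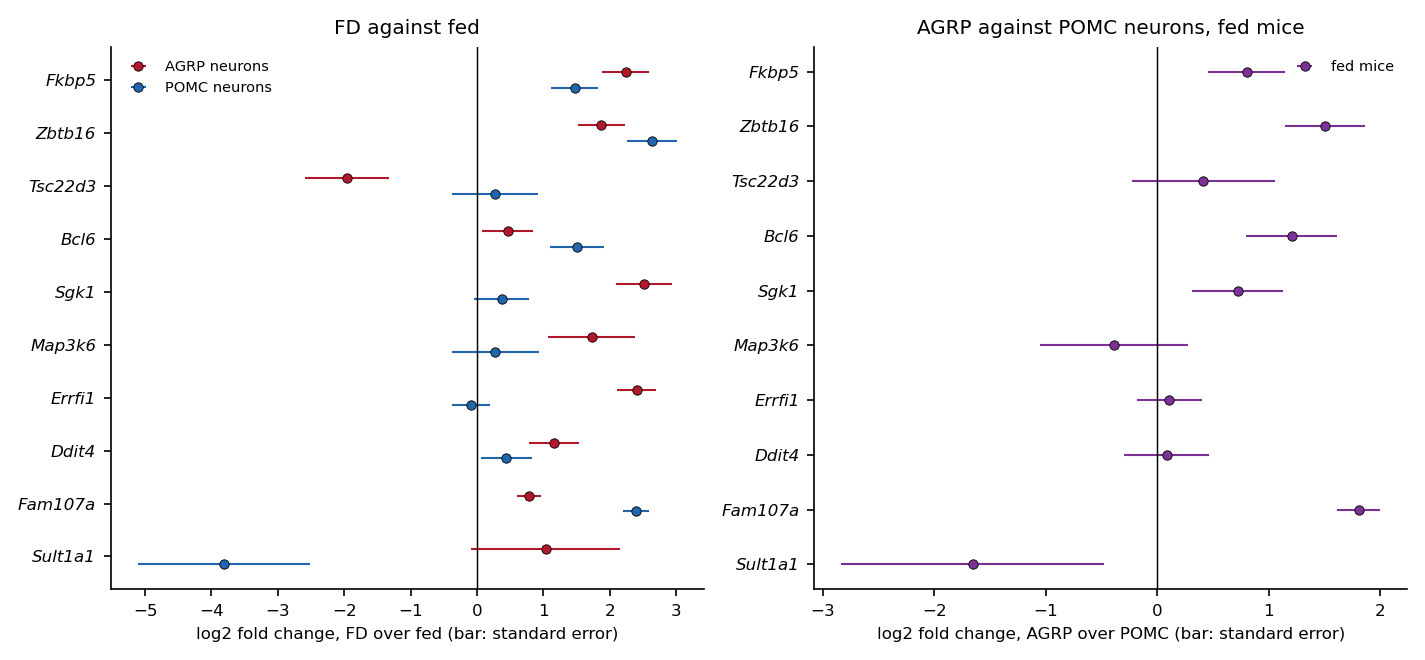
Left, log2 fold change of each gene, FD over fed, with its standard error in AGRP (red) and POMC neurons (blue), and right, log2 fold change of AGRP over POMC neurons in fed mice (purple). *Sgk1* and *Errfi1* had their change in AGRP neurons (2.51 and 2.41) and *Fam107a* its larger change in POMC neurons (2.39), with CPM scaled by TMM. Under spike-in scaling the POMC values of *Fkbp5*, *Tsc22d3*, *Sgk1*, *Map3k6* and *Ddit4* fell below 0, beside *Errfi1* and *Sult1a1*, which were below 0 on both scales. Apart from the 1 µl libraries, the POMC FD and fed groups had different spike-in schemes, so deprivation and scheme cannot be told apart there.

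Set side by side, the change differed between the cell types for some members. At an adjusted p under 0.05 by edgeR, the 7 over the level had 2 positive differences, AGRP less POMC (*Errfi1* and *Sgk1*), and 1 negative (*Fam107a*). The share over all genes over the level was 11.5%, and nothing is read from this count. The AGRP log2 fold change less that in POMC neurons was 2.49 for *Errfi1* (standard error 0.41), 2.14 for *Sgk1* (standard error 0.57) and −1.60 for *Fam107a* (standard error 0.26). It was 0.77 for *Fkbp5* (standard error 0.48), −0.76 for *Zbtb16* (standard error 0.49) and −1.05 for *Bcl6* (standard error 0.56). For the rest, the AGRP and POMC changes were −1.96 and 0.27 for *Tsc22d3* and 1.04 and −3.82 for *Sult1a1*. They were 1.73 and 0.28 for *Map3k6* and 1.16 and 0.45 for *Ddit4*. Scaling by spike-in RNA per sorted cell in place of total counts put the median over all genes tested at −1.11 (log2, FD over fed) in POMC and at −0.08 in AGRP neurons. On that scale *Fkbp5* was at −0.10, *Zbtb16* at 1.36 and *Fam107a* at 1.41 in POMC neurons, all above the shifted median. *Tsc22d3*, *Sgk1*, *Map3k6* and *Ddit4* turned negative there, at −0.50, −1.03, −0.70 and −0.86, and *Errfi1* and *Sult1a1*, negative on both scales, were at −1.36 and −4.52. Among POMC libraries the 10 µl volume was used in FD mice only and the per-cell scheme in fed mice only. Outside the 1 µl libraries, deprivation and scheme therefore cannot be told apart. The shift is thus not read as a change in RNA per neuron. Within the 1 µl libraries, 3 per group, the log2 ratio of CPM was 1.27 for *Fkbp5*, 0.65 for *Tsc22d3* and 1.04 for *Ddit4*. It was 0.56 for *Sgk1* and −0.19 for *Map3k6*. No values on the spike-in scale were computed within the 1 µl libraries. In AGRP neurons no member changed sign under spike-in scaling, and *Fkbp5* was at 1.85 and *Sgk1* at 2.41.

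The cell types were next compared in fed mice. These fed libraries also enter the changes with deprivation that were in view when the list was made, so the comparison is not independent of that choice and its values are given as a description, without a test. *Fam107a* was 211 ± 61.3 CPM in AGRP and 60.4 ± 15.4 CPM in POMC neurons (SD, n = 5 each), without overlap, a log2 fold change (AGRP over POMC) of 1.80 (standard error 0.19), and 2.17 with spike-in scaling. *Zbtb16* was at 1.50 on the same scale (standard error 0.36), with overlapping groups, and at 0.72 without AGRP fed replicate 5. *Bcl6* was higher in each AGRP library than in any POMC library, at 1.21 (standard error 0.41). The margin was narrow, with 15.8 CPM in the lowest AGRP and 15.6 CPM in the highest POMC library. *Fkbp5* was at 0.80 (standard error 0.35) and *Sgk1* at 0.72 (standard error 0.41), the latter at 1.45 without POMC fed replicate 1. *Errfi1* at 0.11 (standard error 0.29) and *Ddit4* at 0.08 (standard error 0.38) were near 0. By the same criteria, applied to the edgeR fit, 2 of the 7 members over the level were called, *Fam107a* and *Zbtb16*. Both were higher in AGRP neurons, beside 3.43% higher and 4.65% lower over all genes, and nothing is read from this count. The call of *Zbtb16* was lost without AGRP fed replicate 5, with limma-voom, with the compared groups alone, with a block for age cohort, with cell number as a covariate and with spike-in scaling, and that of *Fam107a* with spike-in scaling.

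Per length, *Fam107a* had the highest mean of the members in each group and *Sult1a1* or *Map3k6* the lowest. In AGRP fed mice *Fam107a*, at 192 TPM, was followed by *Errfi1* at 55.3 ± 23.1, *Ddit4* at 41.9 ± 16.5, *Fkbp5* at 27.7 ± 12.1, *Zbtb16* at 23.9 ± 22.3, *Bcl6* at 23.4 ± 7.82, *Tsc22d3* at 22.8 ± 7.75 and *Sgk1* at 21.5 ± 5.07 TPM (SD, n = 5). From *Errfi1* down to *Sgk1*, neighbours in this order differed by less than the larger of their SDs. In POMC fed mice *Fam107a* at 49.5 ± 16.5 and *Errfi1* at 44.9 ± 19.2 TPM (SD, n = 5) differed by less than their SD. In AGRP FD mice *Errfi1*, at 245 ± 38.4 TPM, stood next to *Fam107a* at 279 ± 42.8, and *Fkbp5*, *Sgk1*, *Ddit4* and *Zbtb16* followed at 108 ± 28.9, 102 ± 19.6, 77.2 ± 40.3 and 73.6 ± 8.85 TPM (SD, n = 6). Among genes at 1 TPM or more, *Fkbp5* lay above 61.0% of them in AGRP fed and above 87.8% in AGRP FD mice, and above 45.0% and 69.3% in POMC neurons.

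Deviations of single mice from their group mean do not enter the fold changes between groups, and they were compared between *Fkbp5* and each of the 9 other members as log2(normalized CPM + 1). Across 21 libraries Pearson's r was 0.54 for *Errfi1* (permutation p = 0.0312, adjusted p = 0.191), 0.45 for *Zbtb16* (permutation p = 0.0425, adjusted p = 0.191), 0.42 for *Map3k6* (permutation p = 0.068) and 0.39 for *Sgk1* (permutation p = 0.143). Spearman's rho was 0.56, 0.41, 0.44 and 0.41 for the same genes, with permutation p = 0.0255, 0.0675, 0.0645 and 0.0933. None of the 9 relations passed after adjustment over the 9 (lowest adjusted permutation p = 0.191 for r and 0.203 for rho), and 2 had an unadjusted permutation p under 0.05 for r. The remaining r ran from −0.10 (*Tsc22d3*) to 0.20 (*Sult1a1*). Without the pair of libraries with the most extreme *Fkbp5* deviations, AGRP fed replicate 5 and POMC FD replicate 4, r for *Errfi1* was 0.40 (permutation p = 0.169) and r for *Zbtb16* 0.20 (permutation p = 0.515), so both relations rested in part on those libraries. Within AGRP neurons (n = 11) r was 0.70 for *Zbtb16*, 0.68 for *Sgk1*, 0.66 for *Errfi1* and 0.63 for *Map3k6*, each with an adjusted permutation p of 0.115, and within POMC neurons (n = 10) it was 0.16, 0.33, 0.47 and 0.20, with adjusted permutation p of 0.596 or more. With spike-in scheme means also removed, r was 0.55 for *Errfi1* and 0.52 for *Sult1a1* (adjusted permutation p = 0.0638 for each). Spearman's rho was 0.56 for *Errfi1* (adjusted permutation p = 0.0547) and 0.60 for *Sult1a1* (adjusted permutation p = 0.0493), so 1 relation passed by rho and 0 by r in that setting. *Sult1a1* was near the worth of 3 counts in many libraries.

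**Figure D3:**
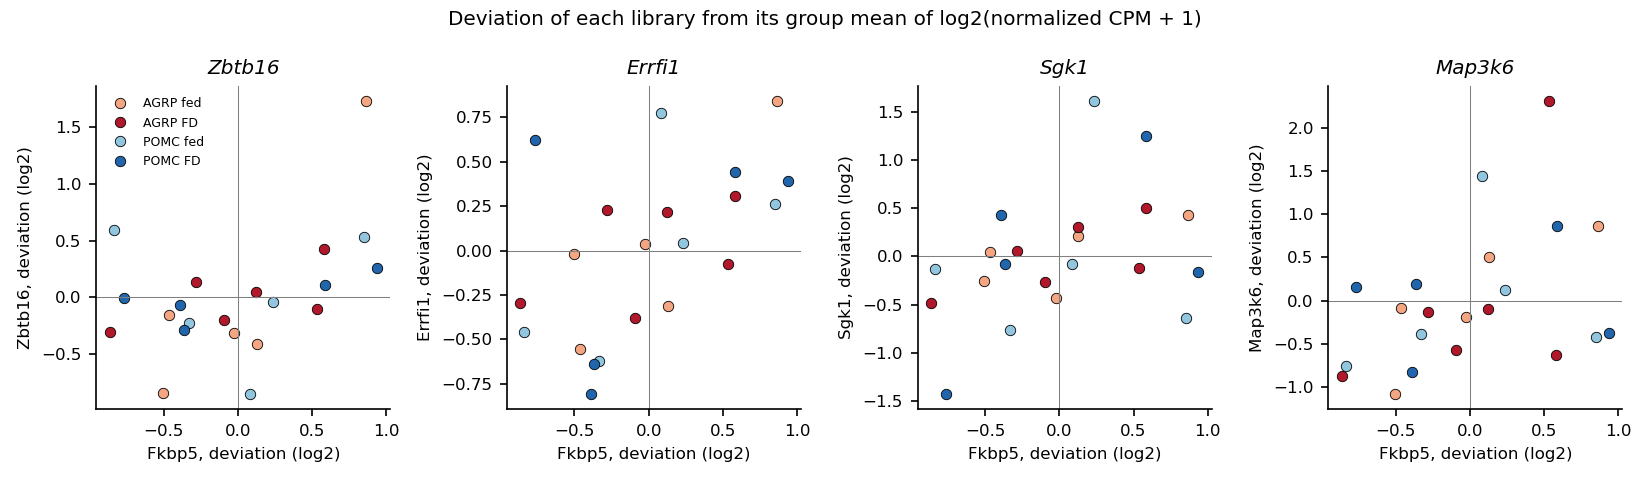
Deviation of each of the 21 libraries from its own group mean of log2(normalized CPM + 1), with *Fkbp5* on the x axis and *Zbtb16*, *Errfi1*, *Sgk1* or *Map3k6* on the y axis, coloured by group. AGRP fed replicate 5 is at the upper right for *Fkbp5* and *Zbtb16*, where r over all libraries was 0.45, and 0.20 without it and POMC FD replicate 4.

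AGRP fed replicate 5 was the highest of the 5 fed AGRP libraries for 6 of 10 members (*Fkbp5*, *Zbtb16*, *Sgk1*, *Map3k6*, *Errfi1* and *Fam107a*), while it was the highest for 22.1% of the 8198 genes over the level. POMC fed replicate 4 was the highest POMC fed library for 6 of 10 members, and for 20.5% of those genes. The mouse of AGRP fed replicate 5 was at postnatal day 46 and gave 214 cells, the most of any library. The part of age, cell number or handling in its values was not tested.

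Over all 21 libraries and all genes over the level, members left out, the pattern most like that of *Fkbp5* was that of *Ell2*, a transcription elongation factor (Pearson's r = 0.92, Spearman's rho = 0.84). *Lrrc58*, *Trib1* (a pseudokinase), *Rad21* (a cohesin subunit) and *Tcerg1l* followed with r from 0.90 to 0.86. Among the members, r with *Fkbp5* was 0.86 for *Zbtb16*, 0.83 for *Errfi1*, 0.83 for *Sgk1*, 0.73 for *Fam107a*, 0.60 for *Ddit4* and 0.46 for *Bcl6*. These are descriptions, since all libraries share the deprivation difference. *Ell2* stood at 20.2 ± 8.31 CPM in AGRP fed (n = 5) and 343 ± 158 CPM in AGRP FD mice (SD, n = 6), and at 18.6 ± 9.08 and 36.6 ± 16.9 CPM in POMC fed and FD mice (SD, n = 5 each).

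Receptors and their partners formed a list of 20 genes, of which 20 were tested and 16 were over the level. *Nr3c1* (ENSMUSG00000024431), the glucocorticoid receptor, was at 299.7, 285, 296, 246 and 322 CPM in AGRP fed and 122, 134, 107, 149 and 113 CPM in POMC fed mice. Each AGRP library lay above each POMC library, and the log2 fold change, AGRP over POMC, was 1.21 (standard error 0.15, adjusted p = 8.31e-07). *Nr3c2* (ENSMUSG00000031618, chromosome 8, 76899772 to 77245012), the mineralocorticoid receptor, was at 55.6, 41.8, 64.2, 37.0 and 60.8 CPM against 2.71, 13.9, 23.2, 8.70 and 16.9 CPM, again without overlap, at 1.98 (standard error 0.52, adjusted p = 0.0134). Both receptors were the list's only calls between the cell types, 2 of 16 higher and 0 lower in AGRP neurons beside 3.43% and 4.65% over all genes, and with spike-in scaling neither passed (1.31 and 2.22, adjusted p = 0.961 and 0.27).

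Neither receptor passed the test with deprivation. *Nr3c1* was at 349 ± 35.3 CPM (SD, n = 6) in AGRP FD and 289.8 ± 28.0 CPM (SD, n = 5) in AGRP fed mice, which is 0.27 on the log2 scale (standard error 0.14, adjusted p = 0.272), and in POMC neurons it was 0.27 as well (standard error 0.15, adjusted p = 0.496), or −0.93 on spike-in scaling. Apart from the 1 µl libraries, the POMC FD and fed groups had different spike-in schemes. *Nr3c2* was at 15.004 to 43.7 CPM in AGRP FD mice, with a log2 fold change of −0.95 (standard error 0.48, adjusted p = 0.237). With limma-voom it was called at −1.03 (adjusted p = 0.0419). *Hsd11b1*, the enzyme that regenerates active hormone inside cells, was at 0.220 CPM or less in every AGRP library and between 0 and 6.67 CPM in POMC libraries. In AGRP libraries that is at or near the worth of 3 counts.

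**Figure D4:**
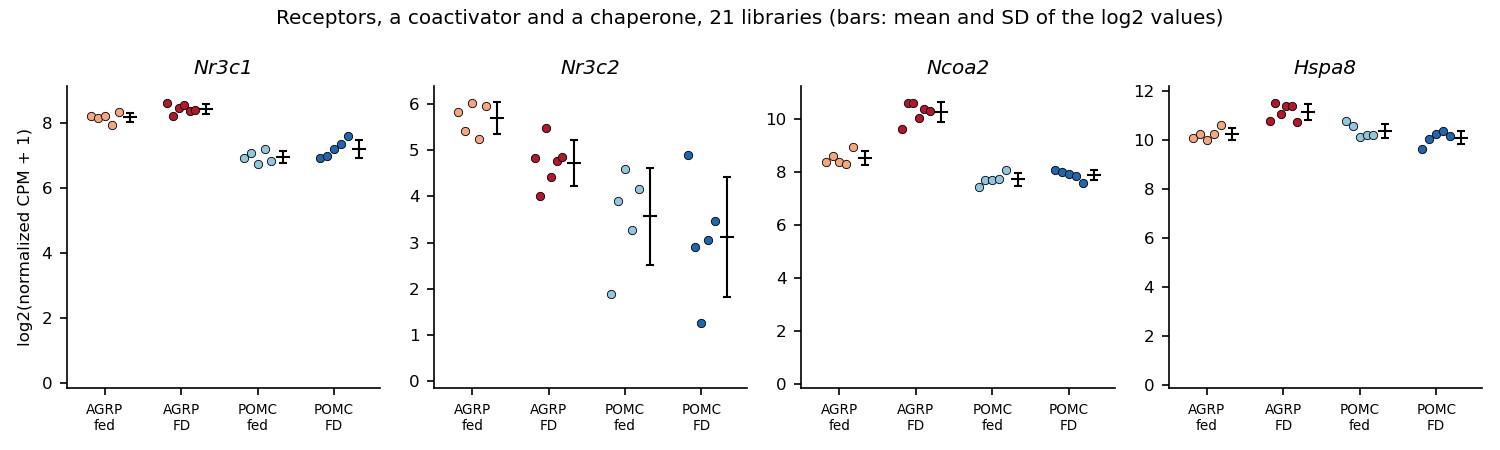
Levels of *Nr3c1*, *Nr3c2*, the coactivator *Ncoa2* and the chaperone *Hspa8* as log2(normalized CPM + 1), 1 point per library in the 4 groups, with the mean and SD of the log2 values. Both receptors were higher in AGRP than in POMC neurons of fed mice (1.21 and 1.98 on the log2 scale), and *Ncoa2* was higher in AGRP FD than in AGRP fed mice (1.74).

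One receptor partner was called with deprivation. *Ncoa2* (ENSMUSG00000005886, chromosome 1, 13139105 to 13374083), a coactivator of nuclear receptors, was at 329, 389, 335, 318 and 494 CPM in AGRP fed mice, and the lowest, median and highest AGRP FD values were 779, 1278 and 1554 CPM. The log2 fold change was 1.74 (standard error 0.17, adjusted p = 2.71e-08), higher in 6 of 6 FD libraries than in any fed one. With spike-in scaling it was 1.66 (adjusted p = 0.631). In POMC neurons it was 0.16 (standard error 0.17, adjusted p = 0.778), and the difference of the changes was 1.58 (standard error 0.23, adjusted p = 6.7e-05). *Hspa8*, the constitutive HSP70 chaperone, had an adjusted p of 0.000243 but a log2 fold change of 0.92, under the size required. The counts were 1 of 16 higher and 0 lower in AGRP neurons, near the 5.09% and 3.9% over all genes, and 0 of 16 in POMC neurons, beside 0.256% and 0.281%, where limma-voom and DESeq2 also gave 0. In POMC neurons 3 of the 20 had an unadjusted p under 0.05 by edgeR. No share over all genes at that threshold stands beside this count, so nothing is read from it. The list's median log2 fold change was 0.23 in AGRP and −0.09 in POMC neurons, against 0.09 and −0.01 over all genes over the level.

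A wider list of 39 genes, drawn from general knowledge of glucocorticoid targets in many tissues, was tested for its change with deprivation. Like the receptor list, it was set with earlier results of these data known, so its counts are not independent evidence of a direction. There were 38 in the table (*Cebpd* was not analysed here), 30 tested and 13 over the level. In AGRP neurons 5 of 13 rose and 0 fell, beside 5.09% higher and 3.9% lower over all genes over the level. Of those that rose, *Cdkn1a* and *Mt2* were over the level only through AGRP FD mice, the group where they were high. Their place among the 13 thus depended on the change itself. The median log2 fold change of the 13 was 0.95, against 0.09 over all genes over the level. Of the 13 values 12 were above 0, but no share over all genes stands beside this count, so nothing is read from it. A further 4 genes passed the adjusted p alone, all higher (*Per1*, *Irs2*, *Mt1* and *Agt*). In POMC neurons, with 0.256% higher and 0.281% lower over all genes, 0 of 13 were called by edgeR and also 0 by limma-voom and DESeq2. The median was 0.53, against −0.01 over all genes over the level. By edgeR 6 of 30 had an unadjusted p under 0.05. No share over all genes at that threshold stands beside this count, so nothing is read from it.

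The 5 genes that rose in AGRP neurons hold cell cycle and survival genes, a metallothionein and a pair of transcription factors. *Cdkn1a* (ENSMUSG00000023067, chromosome 17, 29090979 to 29100722), the cell cycle inhibitor p21, was at 0.869, 1.43, 1.703, 2.13 and 19.4 CPM in fed mice and at 215, 468 and 577 CPM at the lowest, median and highest in FD mice. Its log2 fold change was 6.36 (standard error 0.69, adjusted p = 1.79e-07), and 8.09 without AGRP fed replicate 5. *Mt2* (ENSMUSG00000031762, chromosome 8, 94172618 to 94173567), a metal-binding protein induced by glucocorticoids and by zinc, went from 1.78 CPM or less in fed mice to between 6.97 and 141 CPM in FD mice, at 6.45 (standard error 0.75, adjusted p = 8.16e-07).

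*Bcl2l1*, which encodes the survival protein BCL-XL, was between 27.0 and 44.1 CPM in fed and between 69.7 and 215 CPM in FD mice, with a log2 fold change of 1.81 (standard error 0.32, adjusted p = 0.000272). *Klf9*, a transcription factor that the receptor induces in neurons, was between 26.0 and 47.7 CPM in fed and between 85.0 and 126 CPM in FD mice, at 1.49 (standard error 0.35, adjusted p = 0.00505). *Foxo1*, which insulin signalling excludes from the nucleus, was between 234 and 480.2 CPM in fed and between 595 and 847 CPM in FD mice, at 1.16 (standard error 0.27, adjusted p = 0.00511). For each of the 5 genes every FD library lay above every fed library. With spike-in scaling *Cdkn1a* (5.56) and *Mt2* (6.39) kept their calls, and *Bcl2l1* (1.80, adjusted p = 0.551), *Klf9* (1.28) and *Foxo1* (0.95, both with adjusted p = 1) lost theirs. On the same list 4 of the 13 genes over the level differed in their change between the cell types at an adjusted p under 0.05, beside 11.5% of all genes over the level. These were *Cdkn1a*, *Mt2*, *Bcl2l1* and *Foxo3*, and *Mt1*, under the level, differed too. As *Cdkn1a* and *Mt2* were over the level only through AGRP FD mice, nothing is read from this count. *Foxo3* had log2 fold changes of opposite sign, −0.76 (standard error 0.29) in AGRP and 0.86 (standard error 0.31) in POMC neurons, neither of which passed on its own.

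**Figure D5:**
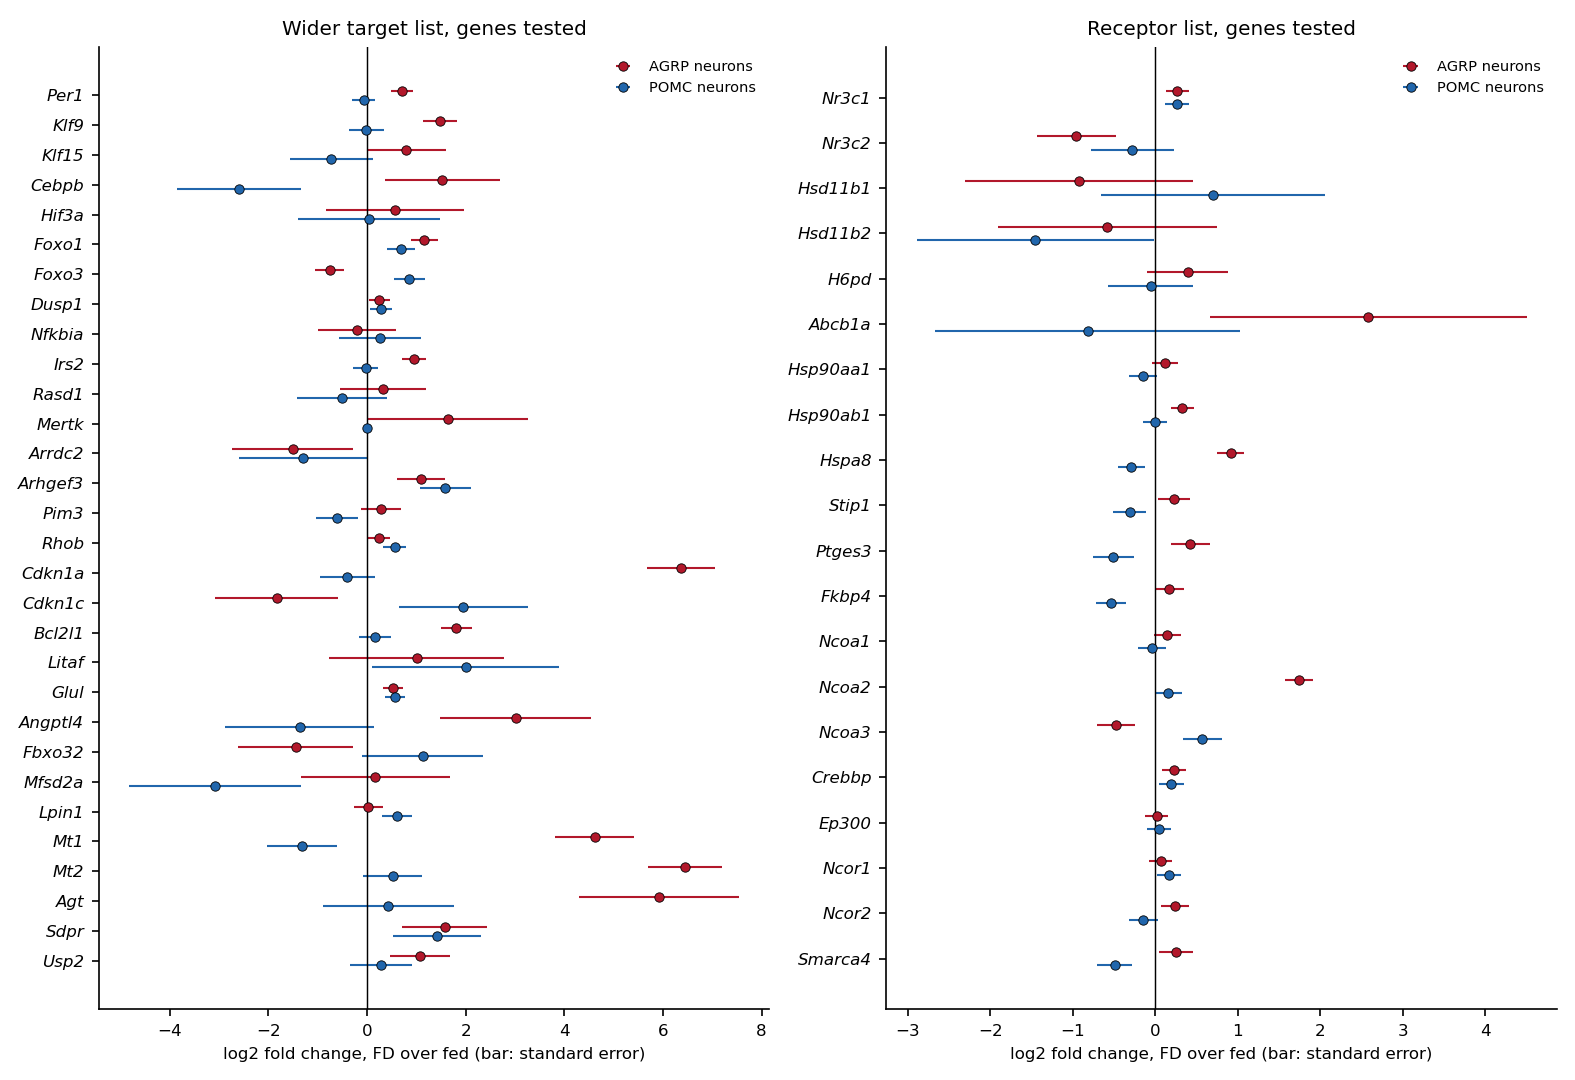
Log2 fold change, FD over fed, with its standard error for the 30 tested genes of the wider target list (left) and the 20 of the receptor list (right), in AGRP (red) and POMC neurons (blue). In AGRP neurons *Cdkn1a* and *Mt2* lay above 6 and *Ncoa2* at 1.74, and in POMC neurons 0 genes of either list were called, with CPM scaled by TMM.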

How the data were processed

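RNA was amplified from hand-sorted neurons, without molecular identifiers, so intervals from counts alone would understate error. The authors trimmed reads with cutadapt 1.7.1, removed unwanted reads with Bowtie2 2.1.0, mapped to mm10 with STAR 2.4.0i and counted uniquely mapped reads per Gencode gene with HTSeq 0.6.1p1, without strand; the deposited counts are not normalized. The deposited TPM were made by the authors from these counts and gene lengths. Summary entries and 92 spike-ins were kept apart from genes.

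Members and lists were chosen with earlier results of these data known. The members' cell type contrast in fed mice, planned as a test, is given as a description, since it shares the fed libraries. Genes with CPM over 1 in at least 3 libraries (16513) entered 1 edgeR 4.0.16 quasi-likelihood fit with 4 groups (TMM, R 4.3.3), two-sided, Benjamini-Hochberg adjusted, after a test of the script on simulated data. The study's limma-voom test (limma 3.58.1) and DESeq2 1.42.0 were alternatives. Correlations used 100000 permutations within groups. Named were the members, *Nr3c1*, *Nr3c2*, *Hsd11b1*, called genes of both lists, and the 5 genes most correlated with *Fkbp5*; *Hspa8*, *Foxo3*, *Per1*, *Irs2*, *Mt1*, *Agt*, *Trim63*, *Aqp4* and *Aldh1l1* were named after their values were seen. One cell type marker is not reported here and was left out of the marker sums and counts. Reads of overlapping or antisense genes cannot be told apart.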

Additional observations from a re-analysis of the deposited data

Results flagged for a closer look

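A library far from the rest of its group was found in 6 of 72 groups of values examined (18 genes in 4 groups), where chance gives about 1 in 20. In AGRP fed replicate 5 *Zbtb16* was at 93.4 CPM, with the nearest library at 24.5 CPM, and *Cdkn1a* was at 19.4 CPM, with the nearest at 2.13 CPM. *Map3k6* was at 54.4 CPM in AGRP FD replicate 2, with the nearest at 9.41 CPM, and at 15.01 CPM in POMC fed replicate 4, with the nearest at 5.47 CPM. *Sgk1* was at 39.1 CPM in POMC fed replicate 1, with the nearest at 11.4 CPM. *Cdkn1a* was at 4.14 CPM in POMC fed replicate 4, below the nearest at 21.4 CPM.

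The change with deprivation differed between AGRP and POMC neurons by a test of the interaction for 7 genes of the wider and receptor lists. Over the level, the wider list had 3 positive and 1 negative differences among 13 genes. The receptor list had 2 positive and 0 negative among 16, near the 11.5% of all genes over the level. *Mt1* was under the level. Both lists were set with earlier results of these data known, so nothing is read from these counts. The AGRP less the POMC log2 fold change was 6.76 for *Cdkn1a* (adjusted p = 4.44e-06), 5.94 for *Mt1* (adjusted p = 0.000505), 5.92 for *Mt2* (adjusted p = 0.000106), 1.66 for *Bcl2l1* (adjusted p = 0.0216), 1.58 for *Ncoa2* (adjusted p = 6.7e-05), 1.21 for *Hspa8* (adjusted p = 0.0011) and −1.62 for *Foxo3* (adjusted p = 0.0189).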

How the results depend on the processing

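Counts of calls moved by over 1.5 times in few settings; the cause was not tested. With spike-in scaling the members called in AGRP neurons fell from 5 to 0, in POMC neurons from 2 to 0 and in fed mice from 2 to 0, the wider list in AGRP neurons went from 5 to 3, and the receptor list from 1 to 0 in AGRP neurons and from 2 to 0 in fed mice. At an adjusted p under 0.05 alone, the wider list in AGRP neurons gave 9, and the receptor list 2 in AGRP neurons and 4 in fed mice. The receptor list in AGRP neurons gave 2 with limma-voom and 2 with sorted cells as a covariate. Members in fed mice gave 1 with limma-voom, 1 with the compared groups alone and 1 with an age cohort block, *Zbtb16* being lost, and members in POMC neurons gave 4 with DESeq2.

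Leaving out each library gave 0 to 1 calls for the wider list in POMC neurons (*Arhgef3* without POMC fed replicate 2, *Foxo3* without POMC fed replicate 3), 1 to 2 for the receptor list in AGRP neurons (*Hspa8* added without AGRP fed replicate 5), and 1 to 3 for members in fed mice (lowest without AGRP fed replicate 5). Members called ranged from 4 to 5 in AGRP and from 2 to 3 in POMC neurons, and the wider list in AGRP neurons from 5 to 6.

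Replicate numbers did not pair mice, and each library is a different mouse. Deviations of fed and FD libraries with the same number correlated over genes at −0.16 to 0.00 in AGRP and −0.11 to 0.06 in POMC neurons. In either cell type 0 of 5 fed libraries was nearest to the FD library of its own number. With a replicate block the counts were 5 (wider list, AGRP), 0 (POMC) and 5 (difference), 1, 0 and 2 (receptor list), and 2, 4 and 2 (members in fed mice, AGRP and POMC neurons). By Pearson's r no correlation with *Fkbp5* passed in any setting (0 in each), and by Spearman's rho 1 did, *Sult1a1* with spike-in scheme means removed. Depth limits *Sult1a1*, *Hsd11b1* and *Agt*, near 3 counts in many libraries.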
